A study of Mus musculus with 20 samples.

Results

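The 6 gene sets with melanoma or melanocyte biology in their names are described across 7 comparisons of mouse melanoma lines and of myeloid cells from tumour-bearing mice. They were taken by name from the authors' gene set enrichment tables: every set whose name contained MELANO, MITF or PIGMENT, except names with METASTASIS or METASTATIC. The rule found 6 of the 3886 sets listed over all comparisons, and each of the 6 was listed in all 7. The 4 that do not end in _DN are KEGG_MELANOGENESIS, KEGG_MELANOMA, KAUFFMANN_MELANOMA_RELAPSE_UP and LIN_MELANOMA_COPY_NUMBER_UP. The other 2, LIN_MELANOMA_COPY_NUMBER_DN and ONKEN_UVEAL_MELANOMA_DN, hold genes named for loss or lower expression. They are left out of the medians of the 4, but counts of calls out of 6 include them. No listed name contained MITF (0 sets) or PIGMENT (0 sets), so melanocyte biology is represented here by the pathway set KEGG_MELANOGENESIS.

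RNA was sequenced from 20 libraries of C57BL/6 mouse material. Of these, 14 were myeloid cells of adult mice, prepared by removing CD3e-positive cells from bone marrow or spleen. In bone marrow there were 3 libraries of healthy animals, 3 of B16F10 tumor-bearing animals and 2 of YUMM3.3 tumor-bearing animals, and in spleen 2 of each. The other 6 were cultured melanoma cells, 3 libraries of B16F10 and 3 of YUMM3.3, each a single established line. B16F10 derives from a spontaneous mouse melanoma, was selected for lung colonisation and is known for its pigment; YUMM3.3 was derived from an engineered mouse melanoma with an activated Braf allele and loss of Cdkn2a. The sources used here give neither the tumour site nor the tumour's age, and do not say which libraries came from the same animal or culture. CD3e depletion removes T cells and does not select myeloid cells, and with no single genes in the tables the labelled cell types could not be checked against their markers.

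Melanocytes are pigment cells of neural crest origin. Melanocortin signalling through cyclic AMP and CREB raises MITF, the master transcription factor of the lineage, which drives tyrosinase and the related enzymes that make melanin from tyrosine; WNT, KIT and endothelin signals feed into the same pathway. In melanoma the growth factor, RAF-MAPK and PI3K pathways and the cell cycle inhibitors of the CDKN2A locus are commonly altered. Myeloid cells make no melanin, but receptors, kinases and replication enzymes in these sets are shared with many other cells.

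KEGG_MELANOGENESIS collects the melanocortin, WNT, KIT and endothelin routes to pigment synthesis. KEGG_MELANOMA collects growth factors, their receptors, and the MAPK, PI3K, p53 and retinoblastoma pathway genes altered in the disease. KAUFFMANN_MELANOMA_RELAPSE_UP holds DNA repair and replication genes that were higher in human primary melanomas that later relapsed. The LIN pair holds candidate genes in chromosome regions gained (UP) or lost (DN) in human melanomas. ONKEN_UVEAL_MELANOMA_DN holds genes lower in the aggressive class of human melanoma of the eye.

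Each value below is the authors' normalised enrichment score (NES) from the authors' deposited table: the enrichment score of a set in a list of genes ranked by their difference between 2 groups, divided by the mean score of permuted data. A positive NES here means that the set's genes lay toward the end higher in the group named first. A set was called when its deposited false discovery rate q (FDR q) was below 0.05. There is 1 value per set and comparison and none per library, so no spread between replicates can be given. The smallest nonzero nominal p among all sets was 0.00103, while relabelling even 3 against 3 libraries could not give less than 0.05, so the deposited values were not made by relabelling libraries and do not give how far animals or cultures of a group varied. Depth per library is unknown here. In each tissue the 3 comparisons share libraries, and their values are not independent of one another. In the 42 values of the 6 sets, 6 were called (14.3%), against 17.3% of all listed values over the 7 comparisons, so the share of calls among these sets was near the background. The 6 came from KAUFFMANN_MELANOMA_RELAPSE_UP (4 calls) and LIN_MELANOMA_COPY_NUMBER_DN (2 calls). The FDR q nearest the threshold was 0.0256 inside it and 0.103 outside it.

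**Figure D1:**
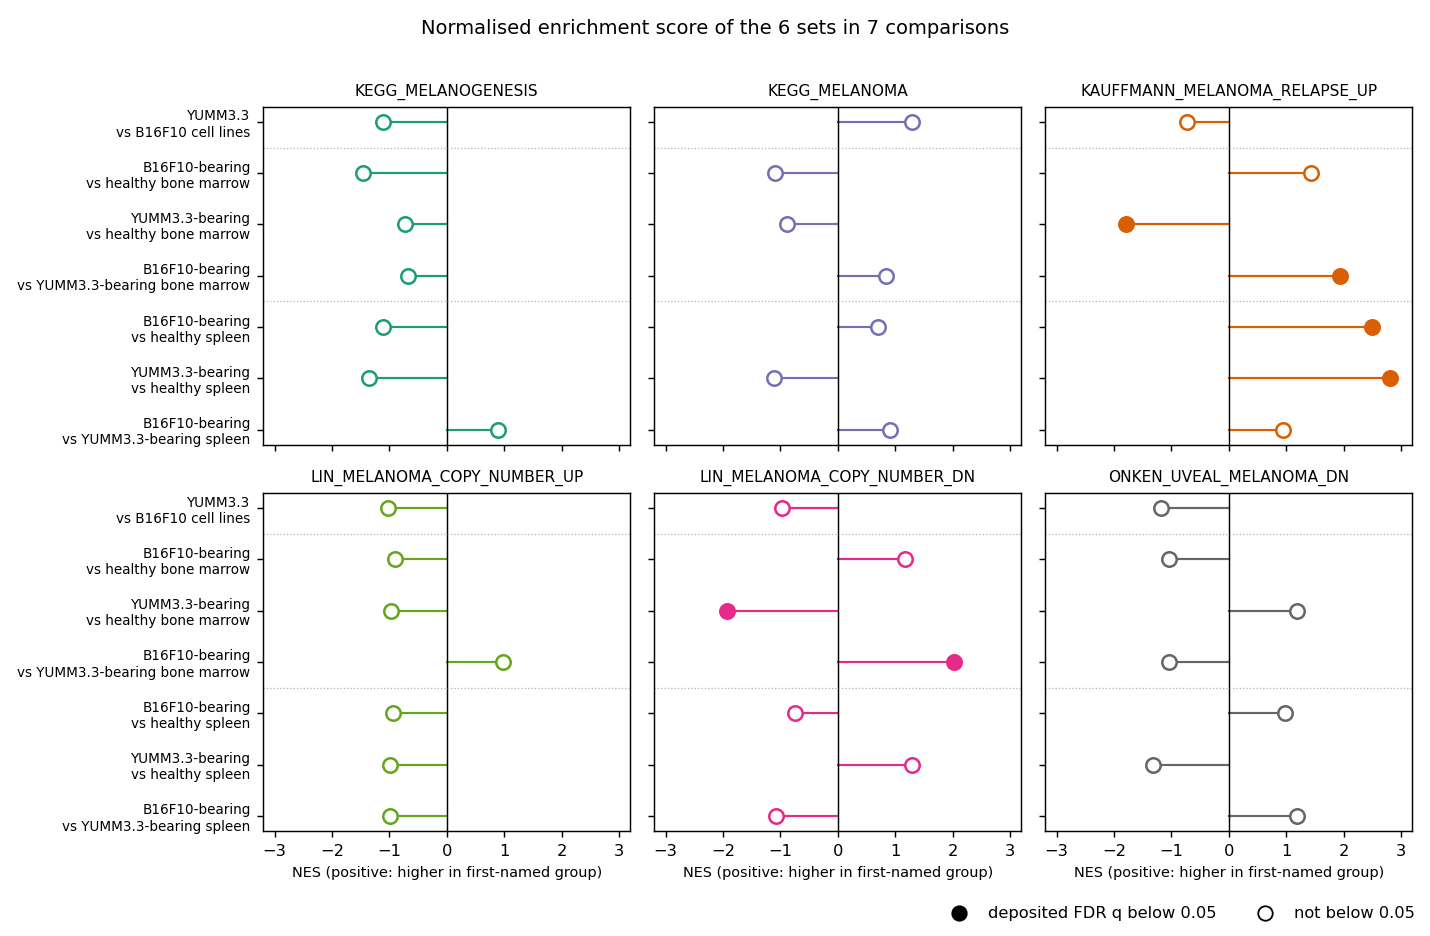
NES of each of the 6 sets (panels) in the 7 comparisons (rows), positive where the set was higher in the group named first; filled circles have a deposited FDR q below 0.05 and open circles do not. KAUFFMANN_MELANOMA_RELAPSE_UP reached 2.49 and 2.81 in spleen of tumour-bearing animals, and LIN_MELANOMA_COPY_NUMBER_DN reached -1.93 and 2.03 in the bone marrow comparisons with YUMM3.3.

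Between the cultured lines, none of the 6 melanoma sets was called, although 5 of the 6 lay on the side higher in B16F10. Of all 3871 listed sets, 1032 lay on that side. In the authors' deposited table KEGG_MELANOGENESIS, with 89 genes, had an NES of -1.12 (FDR q = 0.567) for YUMM3.3 against B16F10. Its leading edge, the genes ranked before the score reached its maximum, held 12 genes within the 1289 most B16F10-sided genes. KEGG_MELANOMA was the 1 set on the YUMM3.3 side, with an NES of 1.29 (FDR q = 0.226) and 22 of its 67 genes in the leading edge. The relapse set had an NES of -0.74 (FDR q = 0.980), the smallest size among the 6 sets in this comparison. The LIN pair lay on one side, with an NES of -1.02 (FDR q = 0.688) for UP and -0.97 (FDR q = 0.749) for DN. ONKEN_UVEAL_MELANOMA_DN had an NES of -1.18 (FDR q = 0.500), and its nominal p of 0.0386 was the only one of the 6 below 0.05. Over all 3871 listed sets, 1223 had a nominal p below 0.05.

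The background for these counts was uneven between the directions. Of the 3871 sets listed for the lines, 11.8% were called higher in YUMM3.3 and 1.47% lower, against 0 of the 6 melanoma sets in either direction. The 4 sets not ending in _DN had a median NES of -0.88, against 1.06 over the 3072 listed sets not ending in _DN. The 2 _DN sets had a median of -1.08, against 1.18 over the 799 listed _DN sets.

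Tyrosine metabolism, which includes the chemistry of melanin synthesis, did pass the threshold between the lines. It came from 35 further sets, matched by name to melanin, neural crest, nevus, tyrosine metabolism, Schwann cells, BRAF, SOX10, CREB, keratinocytes or skin. The authors' deposited table gave KEGG_TYROSINE_METABOLISM, with 34 genes, an NES of -1.94 (FDR q = 0.00256), so it was higher in B16F10. Its family-wise p was 0.066. The leading edge held 10 of the 34 genes, and whether these were genes of melanin synthesis cannot be told without member genes. KEGG_TYROSINE_METABOLISM was the only one of the 35 called lower in YUMM3.3 (2.86%, against 1.47% of all sets). The 3 called higher in YUMM3.3 (8.57%, against 11.8% of all sets) were HUMMERICH_SKIN_CANCER_PROGRESSION_UP at 1.70 (FDR q = 0.0184), LEE_NEURAL_CREST_STEM_CELL_DN at 1.70 (FDR q = 0.0188) and HINATA_NFKB_TARGETS_KERATINOCYTE_DN at 1.67 (FDR q = 0.0239). The neural crest stem cell UP set lay on the same side, at 1.42 (FDR q = 0.127). The 2 sets of BRAF signalling were not called, REACTOME_SIGNALING_BY_BRAF_AND_RAF_FUSIONS having an NES of 1.32 (FDR q = 0.195) and REACTOME_SIGNALING_BY_MODERATE_KINASE_ACTIVITY_BRAF_MUTANTS 1.27 (FDR q = 0.239). KEGG_TYROSINE_METABOLISM was called in none of the 6 myeloid comparisons, where its NES ran from -1.39 to 1.37.

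In spleen, the relapse set was called higher with either tumour. In the authors' deposited table KAUFFMANN_MELANOMA_RELAPSE_UP had an NES of 2.49 in B16F10-bearing against healthy spleen, with FDR q and family-wise p both listed as 0. It stood at place 39 of 3883 sets ordered by NES. In YUMM3.3-bearing against healthy spleen its NES was 2.81, again with both listed as 0, at place 65 of 3883. In both comparisons 31 of its 50 genes made up the leading edge, within the first 1252 ranked genes for B16F10 and the first 954 for YUMM3.3. Whether these were the same 31 genes cannot be told without member genes. The direct comparison of B16F10-bearing with YUMM3.3-bearing spleen gave an NES of 0.94 (FDR q = 0.717), which does not show that the tumours acted alike.

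The other five sets were called in none of the spleen comparisons. Against healthy spleen, 1 of 6 melanoma sets was therefore called higher with B16F10, where the background was 16.6%, and 0 lower, where it was 1.60%. With YUMM3.3 the counts were 1 of 6 higher, against 15.6% of all sets, and 0 lower, against 5.31%. Between the tumours in spleen 0 of 6 were called in either direction, with backgrounds of 9.63% higher and 1.47% lower in B16F10-bearing animals. There, 0 of 6 had a nominal p below 0.05, against 1126 of all 3883 sets. The median NES of the 4 sets not ending in _DN was -0.11 for B16F10 against healthy, -1.06 for YUMM3.3 against healthy and 0.90 between the tumours. The corresponding medians over 3081 listed sets were 1.06, -0.60 and 1.00. An NES is seldom near 0, so a median such as -0.11 lies between 2 positive and 2 negative members and describes neither.

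In bone marrow, the relapse set had an NES of opposite sign with the 2 tumours. The authors' deposited table gave KAUFFMANN_MELANOMA_RELAPSE_UP an NES of 1.42 in B16F10-bearing against healthy marrow, which was not called (FDR q = 0.103, nominal p = 0.0452). In YUMM3.3-bearing against healthy marrow it was called lower, with an NES of -1.79 (FDR q = 0.0256), at place 156 from the lowest of 3883 sets. The direct comparison called it higher in B16F10-bearing than in YUMM3.3-bearing marrow, with an NES of 1.93 (FDR q = 0.00801), at place 111 from the highest. The leading edges held 25, 26 and 24 of the 50 genes. They reached 4559, 3288 and 2825 genes into the ranked list, further than in spleen. In both marrow calls the family-wise p did not pass 0.05, at 0.974 and 0.542. A difference between marrow and spleen in this set was not tested, as no table compares the tissues.

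A pair of sets from the same human study, picked after their values were seen, is larger than the relapse set: KAUFFMANN_DNA_REPAIR_GENES has 207 genes and KAUFFMANN_DNA_REPLICATION_GENES 122. In the authors' deposited table KAUFFMANN_DNA_REPLICATION_GENES was called higher in spleen with B16F10 (NES 2.06, FDR q = 0.000168) and with YUMM3.3 (NES 2.33, FDR q = 5.22e-06). KAUFFMANN_DNA_REPAIR_GENES was called higher in spleen with YUMM3.3 (NES 2.67, FDR q listed as 0) and had an NES of 1.54 with B16F10 (FDR q = 0.0826). In YUMM3.3-bearing against healthy marrow the repair set had an NES of -1.63 (FDR q = 0.0589) and the replication set 0.96 (FDR q = 0.713). With B16F10 in marrow neither followed the positive NES of the relapse set, the repair set standing at -0.83 and the replication set at -0.77, both uncalled. Genes shared between these sets and the relapse set could not be counted.

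**Figure D2:**
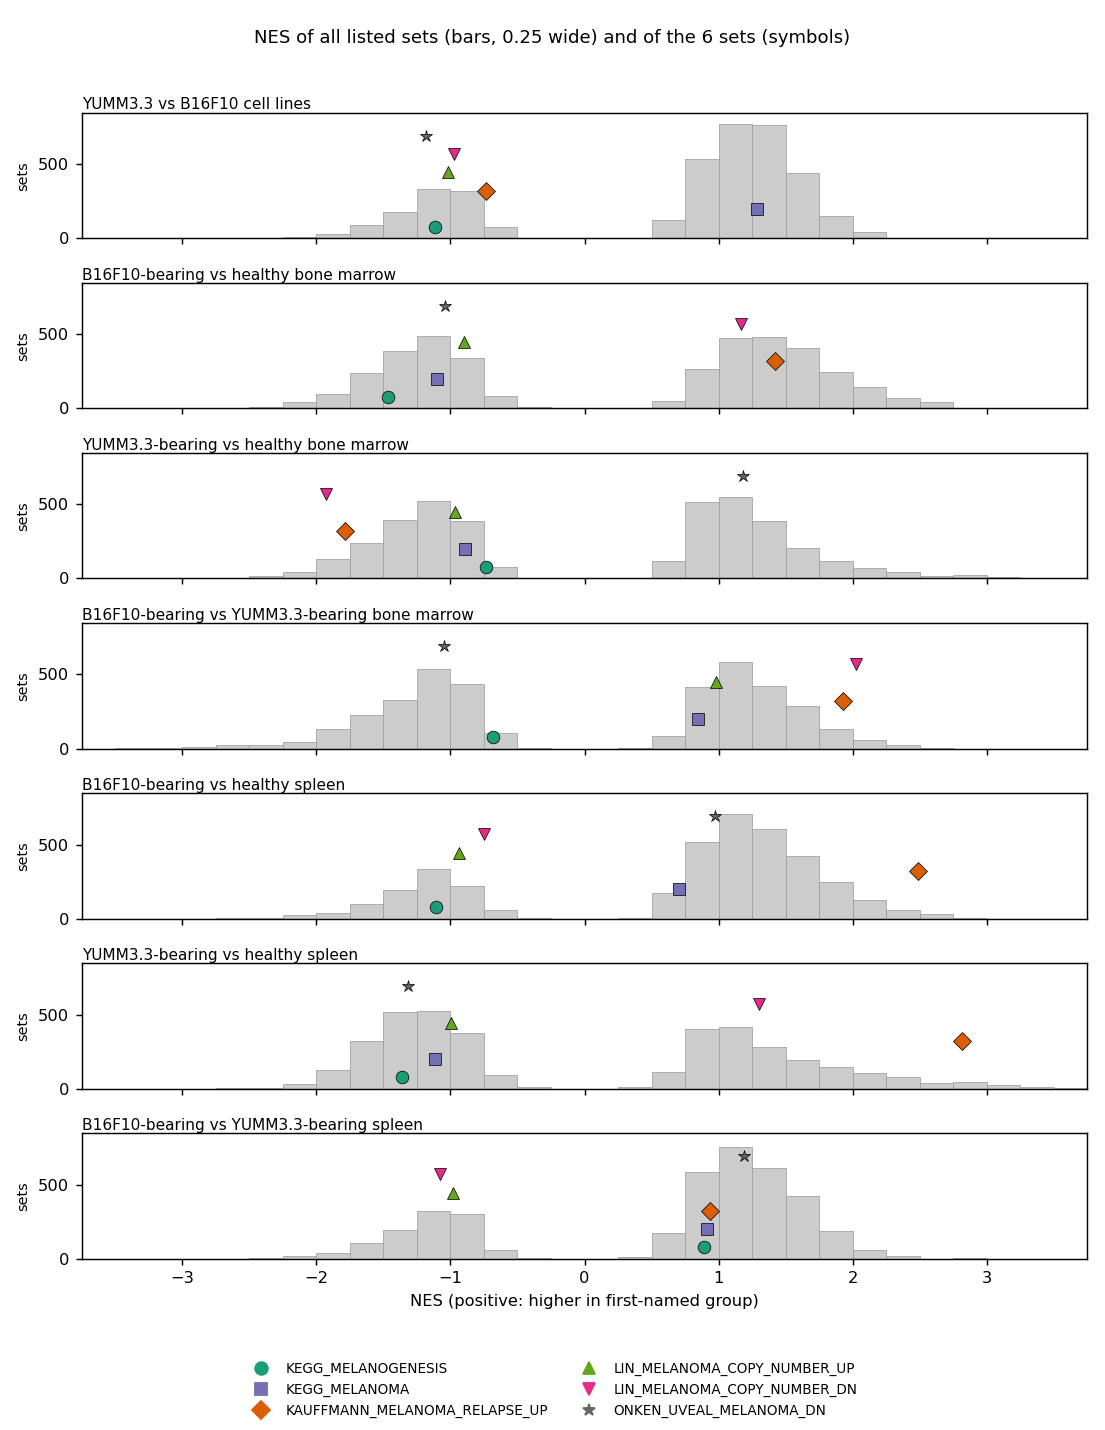
Number of listed gene sets (vertical axis) by NES in steps of 0.25 (horizontal axis) for each comparison, with the 6 melanoma sets as symbols; the height of a symbol only separates the sets. KAUFFMANN_MELANOMA_RELAPSE_UP lay in the upper tail in spleen of tumour-bearing animals at 2.49 and 2.81, while KEGG_MELANOGENESIS and KEGG_MELANOMA lay where 11.1% to 66.8% of the sets had a lower NES.

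Of the copy number pair, the lost-region set was called in 2 of the 3 bone marrow comparisons. LIN_MELANOMA_COPY_NUMBER_DN, with 31 genes, had an NES of 1.16 in B16F10-bearing against healthy marrow (FDR q = 0.302) in the authors' deposited table. It was called lower in YUMM3.3-bearing against healthy marrow, with an NES of -1.93 (FDR q = 0.00987), at place 86 from the lowest. Between the tumours it was called higher with B16F10, with an NES of 2.03 (FDR q = 0.00374), at place 72 from the highest. Its leading edge held 15 genes in the YUMM3.3 comparison and 14 between the tumours. Its family-wise p values were 0.531 and 0.214. In spleen the same set was not called, with an NES of -0.75 for B16F10 against healthy, 1.30 for YUMM3.3 against healthy and -1.08 between the tumours, so each of the 3 had the opposite sign to its counterpart in marrow.

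LIN_MELANOMA_COPY_NUMBER_UP, the gained-region set with 56 genes, was called in none of the 7 comparisons. Its NES ran only from -1.02 to 0.98, and its smallest FDR q was 0.602. In bone marrow its NES was -0.90 for B16F10 against healthy, -0.97 for YUMM3.3 against healthy and 0.98 between the tumours. In spleen it was -0.94, -0.995 and -0.98 in the same order. It had the same sign as its DN partner between the lines, in YUMM3.3-bearing against healthy marrow, between the tumours in marrow, and in 2 of the 3 spleen comparisons.

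In B16F10-bearing against healthy marrow 0 of 6 sets were called in either direction, against 20.1% of all sets higher and 5.0% lower. A nominal p below 0.05 was listed for 2 of the 6, and for 1617 of all 3883 sets. In YUMM3.3-bearing against healthy marrow 0 of 6 were called higher, against 9.68%, and 2 of 6 lower, against 6.52%. Between the tumours 2 of 6 were called higher with B16F10, against 8.09%, and 0 lower, against 8.40%. In each case the 2 called were the relapse set and the lost-region set, 1 of them ending in _DN. Lower with YUMM3.3, 1 of the 4 sets not ending in _DN was called, against 204 of the 3081 such sets listed. Of the 2 _DN sets 1 was called, against 49 of 802. Higher with B16F10 than with YUMM3.3, 1 of the 4 was called, against 257 of 3081, and 1 of the 2, against 57 of 802. The 4 sets not ending in _DN had a median NES of -0.999 with B16F10, -0.93 with YUMM3.3 and 0.91 between the tumours, against 0.98, 0.73 and 0.75 over 3081 listed sets.

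The pigment pathway set was not called in any myeloid comparison. KEGG_MELANOGENESIS had an NES of -1.47 in B16F10-bearing against healthy marrow (FDR q = 0.143, nominal p = 0.0245) and -0.73 in YUMM3.3-bearing against healthy marrow (FDR q = 0.951) in the authors' deposited table. In spleen the authors' deposited table gave it -1.11 with B16F10 (FDR q = 0.518) and -1.36 with YUMM3.3 (FDR q = 0.186, nominal p = 0.0441). All 4 comparisons with healthy animals were therefore negative, toward healthy, and none passed the threshold. Between the tumours it was -0.68 in marrow (FDR q = 0.980) and 0.89 in spleen (FDR q = 0.780). Its leading edge held between 12 and 26 of its 90 genes in the myeloid comparisons.

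KEGG_MELANOMA, the disease pathway, was not called in any comparison either. Its NES was -1.10 (FDR q = 0.471) with B16F10 and -0.89 (FDR q = 0.786) with YUMM3.3 in marrow, and 0.84 (FDR q = 0.850) between the tumours. In spleen it was 0.71 (FDR q = 0.929), -1.12 (FDR q = 0.414) and 0.91 (FDR q = 0.752) in the same order. Its nominal p was below 0.05 in 0 of the 7 comparisons. Its highest value, 1.29, came from the cultured lines.

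ONKEN_UVEAL_MELANOMA_DN is the largest of the 6 sets, with 448 genes in the myeloid tables. It had an NES of -1.04 (FDR q = 0.547) with B16F10 and 1.19 (FDR q = 0.388) with YUMM3.3 in marrow, and -1.05 (FDR q = 0.572) between the tumours. In spleen it was 0.97 (FDR q = 0.664), -1.32 (FDR q = 0.214) and 1.19 (FDR q = 0.387). The signs in spleen were thus the reverse of those in marrow for each of the 3 comparisons, with no call on either side. Its nominal p of 0.00562 in YUMM3.3-bearing against healthy spleen was the smallest of its 7, yet its FDR q there was 0.214.

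**Figure D3:**
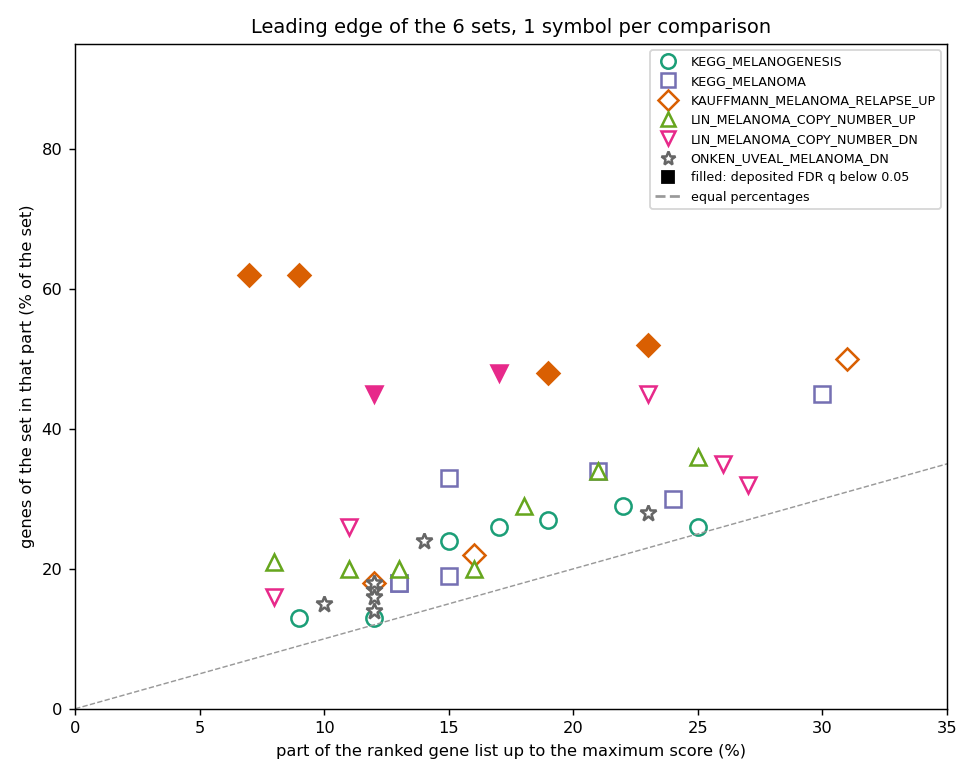
Leading edge of the 6 sets: share of a set's genes in the leading edge (vertical axis, %) against the share of the ranked gene list it spans (horizontal axis, %), 1 symbol per set and comparison, filled where the deposited FDR q is below 0.05; the dashed line marks equal percentages. KAUFFMANN_MELANOMA_RELAPSE_UP in spleen of tumour-bearing animals stands apart, with 62% of the set in the first 9% or 7% of the list.

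The 6 called values had 45% to 62% of the set's genes in the leading edge, and the 36 others had 13% to 50%. The ranked list held between 14549 and 14552 genes in the bone marrow comparisons, as the deposited ranks and percentages imply. In B16F10-bearing and YUMM3.3-bearing against healthy spleen, 62% of the relapse set lay in the first 9% and 7% of that list. The lost-region set had 48% of its genes in 17% of the list in YUMM3.3-bearing against healthy marrow, and 45% in 12% between the tumours. KEGG_MELANOGENESIS between the tumours in marrow had 26% of its genes in 25% of the list, close to an even spread.

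Some of the related sets were called in each myeloid comparison. Of the 35, 4 were called higher in B16F10-bearing than in healthy marrow (11.4%, against 20.1% of all sets) and 0 lower (against 5.0%). In YUMM3.3-bearing against healthy marrow 7 were higher (20.0%, against 9.68%) and 3 lower (8.57%, against 6.52%). Between the tumours in marrow 4 were higher with B16F10 (11.4%, against 8.09%) and 4 lower (11.4%, against 8.40%). In spleen 2 were higher (5.71%, against 16.6%) and 1 lower (2.86%, against 1.60%) with B16F10. With YUMM3.3 in spleen 1 was higher (2.86%, against 15.6%) and 2 were lower (5.71%, against 5.31%). Between the tumours in spleen 4 were higher with B16F10 (11.4%, against 9.63%) and 0 lower (against 1.47%). ENK_UV_RESPONSE_KERATINOCYTE_UP, genes raised in keratinocytes by ultraviolet light, had the largest NES size among them in the authors' deposited table, 2.53 in YUMM3.3-bearing against healthy marrow (FDR q listed as 0). It was also called higher in B16F10-bearing than in healthy marrow, at 2.07 (FDR q = 0.000659), and lower with B16F10 than with YUMM3.3 in marrow, at -2.36 (FDR q listed as 0). In spleen the comparison of the tumours called it in the opposite direction, at 1.99 (FDR q = 0.00232), with 1.76 for B16F10 against healthy (FDR q = 0.0142) and -1.45 for YUMM3.3 against healthy (FDR q = 0.142). The BRAF signalling sets were each called lower once with YUMM3.3, the fusion set in marrow at -1.69 (FDR q = 0.0443) and the mutant set in spleen at -1.73 (FDR q = 0.0421). Neither neural crest set was called in any myeloid comparison.

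The 2 melanoma sets that the name rule left out had calls of their own. WINNEPENNINCKX_MELANOMA_METASTASIS_UP, genes of primary melanomas that went on to spread, had an NES of 2.51 with B16F10 and 3.15 with YUMM3.3 in spleen, both with FDR q listed as 0 in the authors' deposited table. In marrow it was 2.03 with B16F10 (FDR q = 0.00116), -1.66 with YUMM3.3 (FDR q = 0.0522) and 1.98 between the tumours (FDR q = 0.00563). Beside them the relapse set had the same sign in each of these 5 comparisons. Between the lines the metastasis set had an NES of 1.30 (FDR q = 0.218), the opposite sign to the relapse set. WINNEPENNINCKX_MELANOMA_METASTASIS_DN was called lower in YUMM3.3-bearing than in healthy spleen, with an NES of -1.78 (FDR q = 0.0339) in the authors' deposited table, and higher with B16F10 than with YUMM3.3 in spleen, at 1.88 (FDR q = 0.00946). It was not called in the other comparisons, where its NES ran from -1.30 to 1.41.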

How the data were processed

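The files were 14 tables of gene set enrichment, 1 for each direction of 7 comparisons of RNA-seq libraries. Per the file headers, the deposited scores are an enrichment score and its normalised form (NES); set size, the rank of the maximum and the leading edge stand beside them. Deposited p-values are nominal, false discovery rate (FDR q) and family-wise. The submitters' processing notes name DESeq2 1.22.2, featureCounts 1.6.0, STAR 2.7.1a, FastQC 0.11.8 and the mm10 build; the sources used here do not state how genes were ranked and permuted. Scores were signed by the table that listed them, positive for the group named first (for the lines, up means higher in YUMM3.3), so directions rest on the tables' labels. Reading, signing and calling were tested on simulated data. No model was fitted, since the tables hold no library values. No sequence is printed, because the tables give no member genes.

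The 6 sets and the related sets were chosen by name with earlier results of these data known. All 6 are given in all 7 comparisons, the KEGG sets included; related sets are counted in full and examples were picked after their values were seen. Alternatives were a looser FDR q, the family-wise p, a size range, narrower names and 1 set per source. Python 3.11.15 and matplotlib 3.10.9 were used.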

Additional observations from a re-analysis of the deposited data

Results flagged for a closer look

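The relapse and lost-region sets were called higher with B16F10 than with YUMM3.3 in bone marrow in the authors' own comparison of the tumour-bearing groups. So were 8.09% of all listed sets. The family-wise p of the relapse set there was 0.542 and that of the lost-region set 0.214, so neither passed 0.05. KAUFFMANN_MELANOMA_RELAPSE_UP had an NES of 1.93 in B16F10-bearing against YUMM3.3-bearing marrow (FDR q = 0.00801), with 1.42 and -1.79 against healthy marrow. LIN_MELANOMA_COPY_NUMBER_DN had an NES of 2.03 (FDR q = 0.00374), with 1.16 and -1.93 against healthy marrow. These deposited q values do not give the variation among animals, and YUMM3.3-bearing marrow was represented by 2 libraries.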

How the results depend on the processing

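With a deposited FDR q below 0.25, the count of sets not ending in _DN went from 0 to 1 in 4 cases: higher in YUMM3.3 cells (1), higher (1) and lower (1) in B16F10-bearing than in healthy marrow, and lower in YUMM3.3-bearing than in healthy spleen (1). The share of all listed sets below 0.25 was not counted, so these counts have no background beside them. With a family-wise p below 0.05, the relapse set was no longer called in marrow, leaving 0 lower in YUMM3.3-bearing than in healthy marrow and 0 higher in B16F10-bearing than in YUMM3.3-bearing marrow. Of the 3081 listed sets not ending in _DN, 149 and 115 passed it in these comparisons, in that order and in either direction. Names with MELANOM or MELANOCYTE only, which drop KEGG_MELANOGENESIS, turned the median NES for B16F10-bearing against healthy spleen from -0.11 to 0.71. With 1 set per first word, run for the medians alone, that spleen median became -0.94. The set kept for each word was the one with the largest NES size, so it was chosen on the value being summarised. The other 6 medians kept their sign under both alternatives. The limit of 25 to 200 genes is no check here, since the 4 sets counted have 50 to 90 genes and none was dropped. No paired analysis was possible because the tables hold no library values, and for the same reason no library could be left out.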
